A study of Saccharomyces cerevisiae with 8 samples.

Results

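The difference between the mutation strain and the control strain of Saccharomyces cerevisiae BY4741 was measured over all 8 RNA sequencing libraries of the series, 4 of each strain, with the title of the library (HP or nHP) as a block. BY4741 is a laboratory strain of haploid yeast whose mating type is a. By its label the mutation strain tolerates oxidation stress better. Which gene is mutated, the sources used here do not say. The groups were the mutation strain under the nHP title, the mutation strain under the HP title, the control strain under the nHP title and the control strain under the HP title, with 2 libraries in each group. Both strains grew in synthetic complete medium lacking uracil, with H2O2 or without it, and were harvested in the middle of exponential growth. Under medium, the labels give H2O2 for every control library and none for every mutation library, whatever the title. Groups were taken from the titles here; if the medium entry were right, strain and peroxide could not be told apart. Whether the 2 libraries of a group came from separate cultures is not stated. The p-values rest on the spread between these samples alone, and the spread within a group may be technical. In the pooled fit the spread also holds any dependence of the strain difference on the title.

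Yeast cells of mating type a express a set of a-specific genes, which make the a-factor pheromone and the receptor for the pheromone of the other mating type. Haploid cells of either type also express haploid-specific genes, which carry the pheromone signal from a G protein through a scaffold and a MAP kinase to the transcription factor Ste12. In diploid cells the a1-alpha2 repressor shuts off haploid-specific genes, and alpha2 with Mcm1 shuts off a-specific genes. TFIID and SAGA are the large complexes through which most yeast promoters recruit the TATA-binding protein, and Taf10 is a subunit of both.

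The genes with the largest differences in one direction between the strains were a-specific and haploid-specific genes. Upstream sequence is shown for 5 a-specific genes and for FUS1, a cell fusion gene induced by pheromone, because these promoters carry the sites through which mating genes are known to be read. Each line runs 5′ to 3′ on the strand of the gene, from 300 to 141 bases before the start codon, as given by RefSeq for build R64. The windows are MFA2 at chrXIV:352114-352273 on the plus strand, STE2 at chrVI:82280-82439 on the plus strand, STE6 at chrXI:46436-46595 on the minus strand, BAR1 at chrIX:322042-322201 on the plus strand, AGA2 at chrVII:436974-437133 on the minus strand and FUS1 at chrIII:71503-71662 on the plus strand. Capitals mark exact matches, on either strand, to the Ste12 element TGAAACA and to the alpha2 element CATGTAATT.
MFA2: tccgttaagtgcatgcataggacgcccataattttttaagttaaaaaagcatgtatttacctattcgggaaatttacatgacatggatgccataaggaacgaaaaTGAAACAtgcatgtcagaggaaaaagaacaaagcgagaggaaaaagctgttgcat
STE2: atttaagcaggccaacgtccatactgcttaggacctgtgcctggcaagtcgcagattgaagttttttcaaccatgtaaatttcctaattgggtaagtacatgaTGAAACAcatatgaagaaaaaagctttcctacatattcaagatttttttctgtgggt
STE6: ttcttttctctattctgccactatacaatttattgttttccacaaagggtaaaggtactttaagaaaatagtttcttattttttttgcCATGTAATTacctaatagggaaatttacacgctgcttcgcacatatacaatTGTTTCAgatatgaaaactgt
BAR1: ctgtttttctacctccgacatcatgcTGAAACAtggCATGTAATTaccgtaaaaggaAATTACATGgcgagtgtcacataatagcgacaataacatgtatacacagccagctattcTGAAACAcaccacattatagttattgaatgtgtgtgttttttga
AGA2: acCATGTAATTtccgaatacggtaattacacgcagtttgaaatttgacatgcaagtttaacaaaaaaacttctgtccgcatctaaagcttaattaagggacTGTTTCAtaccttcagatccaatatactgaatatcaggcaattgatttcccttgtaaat
FUS1: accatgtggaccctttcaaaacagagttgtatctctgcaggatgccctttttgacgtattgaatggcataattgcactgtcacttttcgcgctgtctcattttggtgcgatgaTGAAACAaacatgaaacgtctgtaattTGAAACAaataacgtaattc
Over the 300 bases before the start codon, TGAAACA stood in the promoters of 5 of 7 a-specific genes, 3 of 13 haploid-specific genes and 10 of 19 fusion genes, against 400 of 5727 promoters of all genes tested (6.98%). CATGTAATT stood in 3 of 7 a-specific promoters (AGA2, BAR1 and STE6), against 18 of 5727 (0.314%), and in none of the 13 haploid-specific or 19 fusion promoters. The letters TACATCA, from the a1-alpha2 element, stood in 1 of 13 haploid-specific promoters (NEJ1), against 290 of 5727 (5.06%). CATGTAATT, read on the other strand, shares the letters TACAT with TACATCA, and a match describes the sequence only. An exact search misses variants of an element, so a promoter without a match need not lack the site.

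Libraries held 8296523 to 11202362 counts. Levels are given as CPM, the read counts scaled to 1 common library size after TMM, which corrects for composition. Where a gene had no count, up to 3 counts could have been missed, which is 0.268 CPM in the deepest and 0.362 CPM in the shallowest library and covers counting error only. On the first principal component, which held 46.5% of the variance, the 2 mutation libraries under HP stood at -29.1 and -26.3, apart from the mutation libraries under nHP at -0.077 and 6.92 and from the 4 control libraries at 3.48 to 16.7. Between the 2 libraries of a group, 161 genes (mutation, HP), 220 genes (mutation, nHP), 295 genes (control, HP) and 150 genes (control, nHP) differed by more than 1.5-fold. No library had a count for LEU2 or MET17, both absent from the BY4741 genome. URA3, the marker that growth without uracil selects for, averaged 2554 ± 857 CPM in the mutation strain and 3747 ± 440 CPM in the control strain (SD, n = 4 each) and was not called, at a log2 difference of -0.61 with an adjusted p of 0.15.

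Of 6174 genes tested, 347 (5.62%) differed between the strains pooled over both titles at an adjusted p below 0.05 in edgeR's quasi-likelihood test. Of these, 100 were higher in the mutation strain (1.62%) and 247 were lower (4.0%). The median log2 difference was 0.52 among the higher genes and -0.67 among the lower genes. Large differences were mostly falls, with 82 lower genes (1.33%) and 14 higher genes (0.227%) at 2-fold or more, and 40 lower and 2 higher genes at 4-fold or more. The a-specific, haploid-specific and fusion genes made up 21 of the 40 genes that were at least 4-fold lower and 25 of the 82 that were at least 2-fold lower.

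All 347 genes had the same sign under both titles and no overlap between the strains within either title. How many of all genes tested had no such overlap was not counted. Of all genes tested, 46.4% had the same sign under both. The pooled fit counts a disagreement between the titles as spread, so this describes the calls and is not separate support for them. Over all 8 libraries together, every mutation library lay above every control library for 76 of the 100 higher genes, and every mutation library lay below for 221 of the 247 lower genes; over all genes tested the counts were 229 (3.71%) and 484 (7.84%). Without TMM, with library totals alone, 39 genes were higher and 304 lower, and on log2(RPKM + 1) 36 were higher and 291 lower. The count dropped to 154 without replicate 1 and rose to 370 without replicate 2 of the nHP mutation libraries; it was 150 without replicate 2 of the nHP control libraries, 156 and 181 without replicate 1 and 2 of the HP mutation libraries and 187 without replicate 1 of the HP control libraries.

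The strain difference was also tested within each title, in comparisons that share no library. Both came from the same fit over all libraries and share its estimate of spread, so their tests are not independent. Within nHP, 706 genes were higher (11.4%) and 612 lower (9.91%) in the mutation strain, 21.3% of all tested, and within HP 907 were higher (14.7%) and 862 lower (14%), 28.7% of all. Called the same way under both titles were 255 genes (4.13%). Of the 100 genes higher in the pooled test, 58 were called under both titles, 33 within HP only and 9 within nHP only. For the 247 lower genes these counts were 192, 34 and 21. The 59 genes higher under both (0.956% of all) made up 8.36% of those higher within nHP and 6.50% of those higher within HP, and the 196 genes lower under both (3.17% of all) made up 32.0% of those lower within nHP and 22.7% of those lower within HP. Called in opposite directions were 228 genes (3.69%), of which 172 were higher within nHP and lower within HP (2.79%) and 56 the other way (0.907%). The difference between the titles itself, as the interaction of strain and title, was called for 1803 genes (29.2%), among them 70 of the 347 pooled genes (20.2%).

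Outside the mating genes, the strain differences within the 2 titles were weakly related. Across the 6174 genes, which share libraries and are not independent replicates, the log2 differences within nHP and within HP had Pearson's r of 0.38 and a Spearman rank correlation of -0.04, and 46.4% of genes had the same sign. Without TAF10 and the 3 mating lists, r was 0.18 and the rank correlation -0.06 over 6134 genes. The count of genes called the same way was 26 higher and 260 lower without TMM, and 20 higher and 218 lower on log2(RPKM + 1). With 1 library left out it ran from 134 (without replicate 1 of the HP mutation libraries) to 393 (without replicate 1 of the HP control libraries); it was 155 and 145 without replicate 1 and 2 of the nHP mutation libraries, 137 without either nHP control library and 160 without replicate 2 of the HP mutation libraries.

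**Figure D1:**
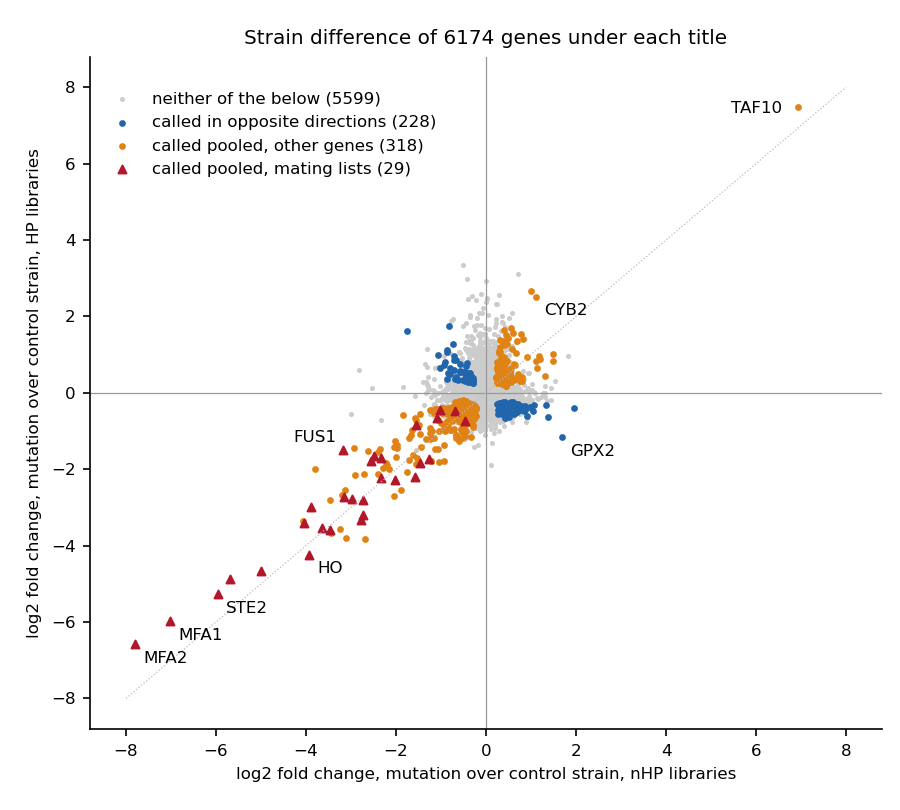
Log2 difference between the mutation and control strains within nHP (horizontal) and within HP (vertical), 1 point per gene tested. Of the 347 genes called in the pooled comparison, the 29 of the a-specific, haploid-specific and fusion lists lie along the diagonal at the lower left and TAF10 stands alone at the upper right; the 228 genes called in opposite directions lie at the upper left and lower right.

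TAF10 (YDR167W), which encodes the histone-fold subunit shared by TFIID and SAGA, had the largest difference of all genes tested. In the mutation strain it had 11635 and 13224 CPM under nHP and 16689 and 16680 CPM under HP. In the control strain it had 91.9 and 112 CPM under nHP and 87.0 and 98.8 CPM under HP. The 4 mutation libraries lay together, about 2 orders of magnitude above the 4 control libraries, and no library overlapped.

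TAF10 averaged 14557 ± 2541 CPM in the mutation strain and 97.4 ± 10.7 CPM in the control strain (SD, n = 4 each), a log2 difference of 7.21 ± 0.23 (SE) with an adjusted p of 2.75e-07. By RPKM, the deposited reads per kilobase scaled to the library total, it ranked first of 7126 genes in every mutation library (18131 to 27708 RPKM) and between 1169 and 1472.5 in the control libraries (142 to 183 RPKM). Reads assigned to it made up 1.13% to 1.72% of all counts in the mutation libraries and 0.0088% to 0.0114% in the control libraries. The genes on either side of it were not called, with log2 differences of -0.0074 and 0.11. A count per gene does not say where in the gene the reads lie or from which copy of it they came.

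Few other members of both complexes were called in the pooled test. Of 15 TFIID subunits 1 was higher, TAF10, and 1 was lower, and the median log2 difference was 0.012, against -0.0056 over all genes tested. The lower one was TAF9, the histone-fold subunit that is also shared with SAGA, at 65.8 ± 4.86 CPM in the mutation strain and 88.0 ± 8.32 CPM in the control strain, a log2 difference of -0.42 with an adjusted p of 0.030. Of 19 SAGA subunits 1 was higher and 2 lower, with a median of 0.032; the second lower one was ADA2, an adaptor of the acetyltransferase module, at -0.32 with an adjusted p of 0.040. The calls of TAF9 and ADA2 were each kept in 1 of 8 fits that left out a library. SPT15, the TATA-binding protein, and RPB7, a subunit of RNA polymerase II, had log2 differences of 0.02 and -0.03 and were not called.

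All 7 a-specific genes were lower in the mutation strain. Their median log2 difference was -5.27, against -0.0056 over all genes tested, and it was -5.69 within nHP and -4.88 within HP. Summed over the 7 genes, the mutation libraries held 56.9 to 88.1 CPM and the control libraries 2055 to 2942 CPM.

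MFA2 (YNL145W), one of the pair of genes for the a-factor precursor, had 2.86 and 2.97 CPM under nHP and 6.06 and 4.87 CPM under HP in the mutation strain, against 622 and 689 CPM under nHP and 460 and 592 CPM under HP in the control strain. Every mutation library held under 10 CPM, and none came near a control library. The log2 difference was -7.11 ± 0.26 (SE), or 138-fold lower, with an adjusted p of 4.12e-07. MFA1 (YDR461W), the other a-factor gene, fell by 6.46 on the log2 scale, to 5.14 ± 1.17 CPM in the mutation strain against 474 ± 133 CPM in the control strain (SD, n = 4 each).

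STE2 (YFL026W), the receptor for alpha-factor, had 10.7 and 12.6 CPM under nHP and 15.9 and 16.0 CPM under HP in the mutation strain, against 651 and 809 CPM under nHP and 553 and 667 CPM under HP in the control strain. The strains did not overlap under either title. The log2 difference was -5.60 ± 0.18 (SE), 48.4-fold lower, with an adjusted p of 2.81e-07. STE6 (YKL209C), the transporter that exports a-factor, had 21.4 and 22.0 CPM under nHP and 37.9 and 38.9 CPM under HP in the mutation strain, against 309 and 331 CPM under nHP and 300 and 310 CPM under HP in the control strain. Its mutation libraries were thus higher under HP than under nHP, while its control libraries were alike, and the pooled log2 difference was -3.42 ± 0.18 (SE).

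BAR1 (YIL015W), the secreted protease that degrades alpha-factor, averaged 10.4 ± 2.01 CPM in the mutation strain and 293 ± 21 CPM in the control strain, a log2 difference of -4.82. AGA2 (YGL032C), the binding subunit of a-agglutinin, averaged 2.38 ± 0.765 CPM in the mutation strain and 96.1 ± 24.1 CPM in the control strain, a difference of -5.27. ASG7 (YJL170C), a regulator of pheromone signalling, averaged 6.99 ± 0.267 CPM in the mutation strain and 54.0 ± 10.5 CPM in the control strain, a difference of -2.93, the smallest of the 7. STE14 (YDR410C), the methyltransferase that finishes a-factor and is no member of the list, was lower by 1.30 on the log2 scale. For 4 of the 7 genes the fall was smaller within HP than within nHP by the interaction test, with interaction log2 values of 0.71 for STE2, 0.89 for STE6, 1.06 for MFA1 and 1.23 for MFA2.

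All 13 haploid-specific genes were lower in the mutation strain as well, with a median log2 difference of -2.87 (-2.73 within nHP and -2.77 within HP). Their summed level was 307 to 351 CPM in the mutation libraries and 1640 to 1787 CPM in the control libraries. The 20 genes of both lists were called lower under every alternative tried, including each of the 8 fits that left out a library.

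The genes of the pheromone G protein fell together. STE4 (YOR212W), the beta subunit, had 20.7 and 19 CPM under nHP and 22.5 and 20.5 CPM under HP in the mutation strain, against 212 and 229 CPM under nHP and 252 and 270 CPM under HP in the control strain. No library overlapped, and the log2 difference was -3.54 ± 0.08 (SE) with an adjusted p of 5.94e-08. GPA1, the alpha subunit, averaged 16.4 ± 2.09 CPM in the mutation strain and 197 ± 14.8 CPM in the control strain, a difference of -3.59. STE18, the gamma subunit, averaged 7.0 ± 1.63 CPM in the mutation strain and 54.3 ± 5.33 CPM in the control strain, a difference of -2.97.

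The 4 haploid-specific components below the G protein were lower too. STE5, the scaffold of the MAP kinase cascade, averaged 13.6 ± 1.63 CPM in the mutation strain and 99.8 ± 2.66 CPM in the control strain. FUS3, the mating MAP kinase, averaged 10.2 ± 1.76 CPM in the mutation strain and 135 ± 18.8 CPM in the control strain. FAR1, which arrests the cell cycle in response to pheromone, averaged 16.3 ± 3.37 CPM in the mutation strain and 133 ± 18.8 CPM in the control strain. The log2 differences were -2.87 for STE5, -3.71 for FUS3 and -3.05 for FAR1. STE12, the transcription factor at the end of the cascade, had 62.4 and 65.3 CPM under nHP and 44.4 and 42.5 CPM under HP in the mutation strain, against 155 and 153 CPM under nHP and 137 and 154 CPM under HP in the control strain. Its fall was the smallest of the 13, at -1.51 ± 0.11 (SE), and it was larger within HP than within nHP, with an interaction of -0.47.

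The remaining haploid-specific genes act outside the pheromone cascade. HO, the mating-type switching endonuclease, averaged 2.25 ± 0.868 CPM in the mutation strain and 37.9 ± 7.81 CPM in the control strain, a log2 difference of -4.08. RME1, a repressor of meiosis, and NEJ1, a factor of end joining, both fell by 2.15 on the log2 scale. AXL1, a protease that processes a-factor and marks axial bud sites, differed by -2.01, RDH54, a DNA translocase of recombination, by -1.89, and AMN1, which acts in daughter cell separation, by -1.65. None of these 6 genes overlapped between strains in any library.

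**Figure D2:**
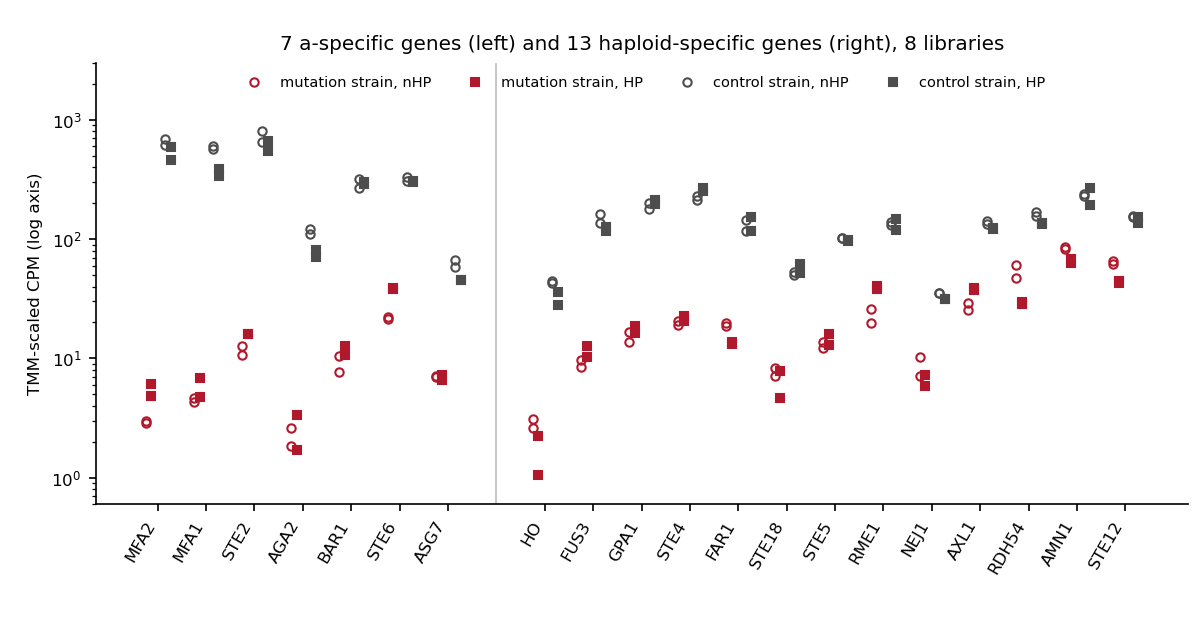
Level in CPM (log axis) of the 7 a-specific genes (left) and the 13 haploid-specific genes (right) in each library; points of the mutation strain stand left of those of the control strain, and marker shapes tell nHP from HP. For each of the 20 genes all 4 mutation libraries lie below all 4 control libraries, from MFA2 at 4.19 CPM in the mutation strain and 590 CPM in the control strain on average to STE12 at 53.6 CPM in the mutation strain and 150 CPM in the control strain.

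Genes induced by pheromone for cell and nuclear fusion were lower in part. Of 19 measured members 9 were lower and none higher, where 4.0% of all genes were lower and 1.62% higher. Their median log2 difference was -0.59. The summed level was 551 to 692 CPM in the mutation libraries and 919 to 1030 CPM in the control libraries. FUS1 (YCL027W), a membrane protein of the fusion site, had 8.10 and 7.67 CPM under nHP and 24.2 and 20.1 CPM under HP in the mutation strain, against 67.9 and 73.9 CPM under nHP and 68.2 and 58.1 CPM under HP in the control strain. The mutation libraries were lower under both titles, and those of HP stood above those of nHP. The pooled log2 difference was -2.24 ± 0.30 (SE) with an adjusted p of 0.0028, and the interaction was 1.67. SST2, which turns off the G protein, fell by 2.77 on the log2 scale and AGA1, the anchor subunit of a-agglutinin, by 2.28.

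The other 6 fusion genes that fell were PRM5 at -2.03, PRM1 at -1.18, FUS2 at -0.87, KAR5 at -0.73, KAR4 at -0.60 and FIG2 at -0.59. PRM1 acts in membrane fusion, FUS2 in cell fusion, KAR4 and KAR5 in nuclear fusion, and FIG2 is a mating adhesin. KAR5 was not called without replicate 1 of the nHP mutation libraries or replicate 2 of the nHP control libraries (highest adjusted p 0.088), and KAR4 was called in 4 of 8 such fits (highest adjusted p 0.10).

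Of 4 genes specific to mating type alpha, none was called in edgeR's pooled test, and their summed level was 45.9 to 68.7 CPM in the mutation libraries and 57.4 to 69.6 CPM in the control libraries. STE3, the a-factor receptor, averaged 3.96 ± 2.18 CPM in the mutation strain and 4.78 ± 0.628 CPM in the control strain. MF(ALPHA)1 averaged 5.97 ± 3.0 CPM in the mutation strain and 4.11 ± 0.543 CPM in the control strain. All 4 genes, including MF(ALPHA)2 and SAG1, had an interaction with title, of 0.51 to 1.69 on the log2 scale.

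The mating-type cassettes gave a partial reading. HMRA1 (YCR097W), which encodes the a1 protein, had 47.3 and 33.9 CPM under nHP and 37.2 and 43.7 CPM under HP in the mutation strain, against 101 and 80.5 CPM under nHP and 74.0 and 110 CPM under HP in the control strain. All mutation libraries lay below all control libraries, with a log2 difference of -1.17 ± 0.16 (SE) and an adjusted p of 0.0029. The R64 genes at the mating-type locus are those of type alpha, while BY4741 is of type a. Reads of a1 from that locus may therefore be counted at HMRA1, and from which copy they came was not tested. MATALPHA1, MATALPHA2, HMLALPHA1, HMLALPHA2 and HMRA2 had 0 counts in all 8 libraries. In the R64 reference MATALPHA1 and HMLALPHA1 are 100% identical, as are MATALPHA2 and HMLALPHA2, and HMRA2 is identical over its full length to part of them. The sources used here do not say how reads with several equal matches were counted, so a count of 0 does not show that these genes were silent. Of 21 genes for meiosis and sporulation 1 was called, IME4, at -0.47, and none was higher; that call was kept in 1 of 8 fits that left out a library and was lost with RLE size factors, without TMM and without the filter on low counts.

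Several regulators of the neighbouring filamentous and invasive growth pathway, which shares STE12 and several kinases with the mating pathway, were also lower. Of 15 genes in a list drawn up after values had been seen, 8 were lower and 1 higher, with a median log2 difference of -0.43. Among all genes tested 4.0% were lower and 1.62% higher. MSB2 (YGR014W), the mucin at the head of the pathway, averaged 56.3 ± 11.3 CPM in the mutation strain and 157 ± 11 CPM in the control strain, a difference of -1.50. TEC1, the partner of Ste12 in this pathway, averaged 52.2 ± 10.4 CPM in the mutation strain and 135 ± 12.6 CPM in the control strain, a difference of -1.39. The other lower members were SFG1 at -1.15, DIG1, which represses Ste12, at -0.80, the MAP kinase gene KSS1 at -0.75, PHD1 at -0.71, FLO8 at -0.53 and SOK2 at -0.43. STE11, a kinase of both pathways, was higher at 0.32 and kept its call in 2 of 8 fits that left out a library and lost it without TMM.

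Some polarity genes were called, in a list drawn up after values had been seen. Of 17 genes 5 were lower and none higher, where 4.0% of all genes were lower and 1.62% higher. The median log2 difference was -0.28. GIC2 (YDR309C), an effector of the GTPase Cdc42, had 36.7 and 41.8 CPM under nHP and 37.6 and 41.5 CPM under HP in the mutation strain, against 129 and 128 CPM under nHP and 130 and 139 CPM under HP in the control strain. The 8 libraries fell into 2 tight sets by strain, with a log2 difference of -1.74 ± 0.08 (SE) and an adjusted p of 1.26e-06. BEM2, a GTPase-activating protein of bud emergence, differed by -0.67, and both were called in all 8 fits that left out a library. RAX2, AXL2 and BUD8 were lower at -0.58, -0.58 and -0.50 but kept their calls in 1, 2 and 3 of those 8 fits.

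Several of the deepest falls lay outside the mating lists, which need not hold every gene specific to haploid cells. YGL193C, a gene beside the meiotic regulator IME4, had a log2 difference of -3.57. It averaged 2.07 ± 0.648 CPM in the mutation strain and 24.7 ± 1.16 CPM in the control strain. NDJ1, which acts on telomeres in meiosis, averaged 2.07 ± 0.479 CPM in the mutation strain and 18 ± 1.6 CPM in the control strain, a difference of -3.10. SRD1, a factor of ribosomal RNA processing, averaged 12.5 ± 0.992 CPM in the mutation strain and 54.5 ± 4.42 CPM in the control strain. VBA2, a vacuolar permease for basic amino acids, averaged 18.6 ± 3.41 CPM in the mutation strain and 66.5 ± 2.38 CPM in the control strain. None of the 4 genes overlapped between strains. The noncoding RNAs SCR1, of the signal recognition particle, and RPR1, of RNase P, were lower by 0.93 and 0.79 on the log2 scale.

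Some called genes are neighbours on a chromosome. Of all genes tested 5.62% were called, and 4.0% were called lower. In 28 adjacent pairs both genes were called, and in 26 of them both were lower. Among these pairs were GYP8 with STE2, ICS2 with AMN1, THI22 with AXL1 and YGL193C with IME4. ICS2 and THI22 were lower by 2.25 and 2.02 on the log2 scale and GYP8 by 1.08. By the annotation, GYP8 and STE2 lie 667 bases apart, ICS2 and AMN1 2238, THI22 and AXL1 1743, and YGL193C and IME4 18. Whether transcripts of neighbours overlap was not tested, and the strand setting of the counting is not stated. How many such pairs the share of called genes alone would give was not tested either. Over the 16 chromosomes the median log2 difference lay between -0.042 and 0.031, and the share of genes called between 1.18% and 6.70%.

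Some genes of Ty retrotransposons, mobile elements that are present in many near-identical copies, were lower. Of 89 annotated, 28 passed the filter on low counts, which a gene could pass through the strain where it was high, so the count of those called is a description and not support for a direction. Of the 28, 18 were lower and none was higher, in a list drawn up after values had been seen. Among all genes tested 4.0% were lower. The genes called were low, with means of 0.432 to 14 CPM in the mutation strain and 1.46 to 26.1 CPM in the control strain. Without the filter 18 of 34 were lower, and with a minimum of 10 CPM in 4 libraries 8 of 9. Their fold changes depend on the scale, with a median of -1.27 over the 28 genes, -0.92 without the filter and -0.53 on log2(RPKM + 1). Which copy a read came from is uncertain, so counts per copy are too.

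Rises were mostly smaller than the falls. The other gene that was at least 4-fold higher, YML089C, was low, with 5.45 ± 3.44 CPM in the mutation strain and 1.31 ± 0.459 CPM in the control strain, and was not called within nHP; its pooled call was lost without either HP mutation library or replicate 1 of the HP control libraries (highest adjusted p 0.064). Among genes that averaged 10 CPM or more and were called under both titles, the largest rise after TAF10 was that of CYB2 (YML054C), the mitochondrial enzyme that oxidises L-lactate, with 332 and 208 CPM under nHP and 591 and 493 CPM under HP in the mutation strain, against 131 and 119 CPM under nHP and 118 and 72.2 CPM under HP in the control strain. All mutation libraries lay above all control libraries, those of HP furthest, and the log2 difference was 1.81 ± 0.31 (SE) with an adjusted p of 0.012. Without replicate 1 of the HP control libraries the adjusted p was 0.061. DLD1 (YDL174C), the enzyme for D-lactate, averaged 730 ± 296 CPM in the mutation strain and 316 ± 42.7 CPM in the control strain, a difference of 1.12. MPC3, a subunit of the mitochondrial pyruvate carrier, averaged 877 ± 353 CPM in the mutation strain and 409 ± 93.9 CPM in the control strain, a difference of 1.02.

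These 3 genes were the called members among 8 genes for lactate and pyruvate use, where 1.62% of all genes were higher. The list was drawn up after values had been seen, and its median log2 difference was 0.60. JEN1, the lactate permease, had a pooled difference of 1.25 but an adjusted p of 0.22; its difference was -0.10 within nHP and 2.59 within HP. DLD1 was called in 3 of 8 fits that left out a library (highest adjusted p 0.11), and lost the call without replicate 1 of the nHP mutation, replicate 2 of the nHP control, either HP mutation or replicate 1 of the HP control libraries. MPC3 had an adjusted p of 0.0501 without replicate 1 of the HP control libraries.

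Cell wall genes moved both ways. HPF1 (YOL155C), a cell wall mannoprotein, had 966 and 870 CPM under nHP and 776 and 728 CPM under HP in the mutation strain, against 336 and 315 CPM under nHP and 401 and 336 CPM under HP in the control strain. No library overlapped, and the log2 difference was 1.26 ± 0.12 (SE) with an adjusted p of 0.00033. PIR3, a glycoprotein linked to the wall's glucan, averaged 182 ± 17.0 CPM in the mutation strain and 100 ± 26.3 CPM in the control strain, a difference of 0.89. Of 35 cell wall proteins 5 were higher and 4 lower, where 1.62% of all genes were higher and 4.0% lower. The list median was -0.14. The others that rose were CWP1, PRY3 and DSE4, by 0.43, 0.41 and 0.30. The 4 that fell were SCW10 at -0.75, YGP1 at -0.60, SCW11 at -0.44 and TIP1 at -0.41. HPF1, PIR3 and PRY3 were called in all 8 fits that left out a library, DSE4 was called in 3 of them and lost its call without TMM, and the number of lower members in those fits ran from 0 (without replicate 1 of the nHP mutation, replicate 2 of the nHP control or either HP mutation library) to 4, and was 1 without replicate 1 and 2 without replicate 2 of the HP control libraries and 2 without replicate 1 of the nHP control libraries.

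GRE2 (YOL151W), a reductase of methylglyoxal that is induced by stress, had 409 and 356 CPM under nHP and 569 and 467 CPM under HP in the mutation strain, against 237 and 252 CPM under nHP and 335 and 286 CPM under HP in the control strain. The log2 difference was 0.69 ± 0.10 (SE), with no overlap. SFA1, which detoxifies formaldehyde, and YHB1, which detoxifies nitric oxide, were higher by 0.60 and 0.61. GRE2, SFA1 and YHB1 were called in all 8 fits that left out a library.

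The rises of 4 more genes were not kept in every fit that left out a library. PNS1, a membrane protein related to choline transporters, averaged 686 ± 255 CPM in the mutation strain and 294 ± 70.7 CPM in the control strain, a log2 difference of 1.15. SNZ1, of vitamin B6 synthesis, averaged 201 ± 125 CPM in the mutation strain and 88.2 ± 26.9 CPM in the control strain, a difference of 1.0. RTN2, a reticulon of the endoplasmic reticulum, and TMA10, which associates with ribosomes, differed by 0.68 and 0.65. PNS1 lost its call without replicate 1 of the nHP mutation or of the HP control libraries (highest adjusted p 0.061), and SNZ1 without replicate 1 of the nHP mutation, either HP mutation or replicate 1 of the HP control libraries (0.11). RTN2 lost it without replicate 1 of the nHP mutation, either nHP control or either HP mutation library (0.15), and TMA10 without replicate 1 of the nHP mutation, replicate 2 of the nHP control, either HP mutation or replicate 1 of the HP control libraries (0.12). SNZ1, RTN2 and TMA10 also lost their calls without TMM and on log2(RPKM + 1). SNZ2 and SNZ3, relatives of SNZ1 that are 99.3% identical to each other, were called lower at a low level, with means of 1.24 and 1.28 CPM in the mutation strain against 4.80 and 3.96 CPM in the control strain, and their reads may be split between them.

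**Figure D3:**
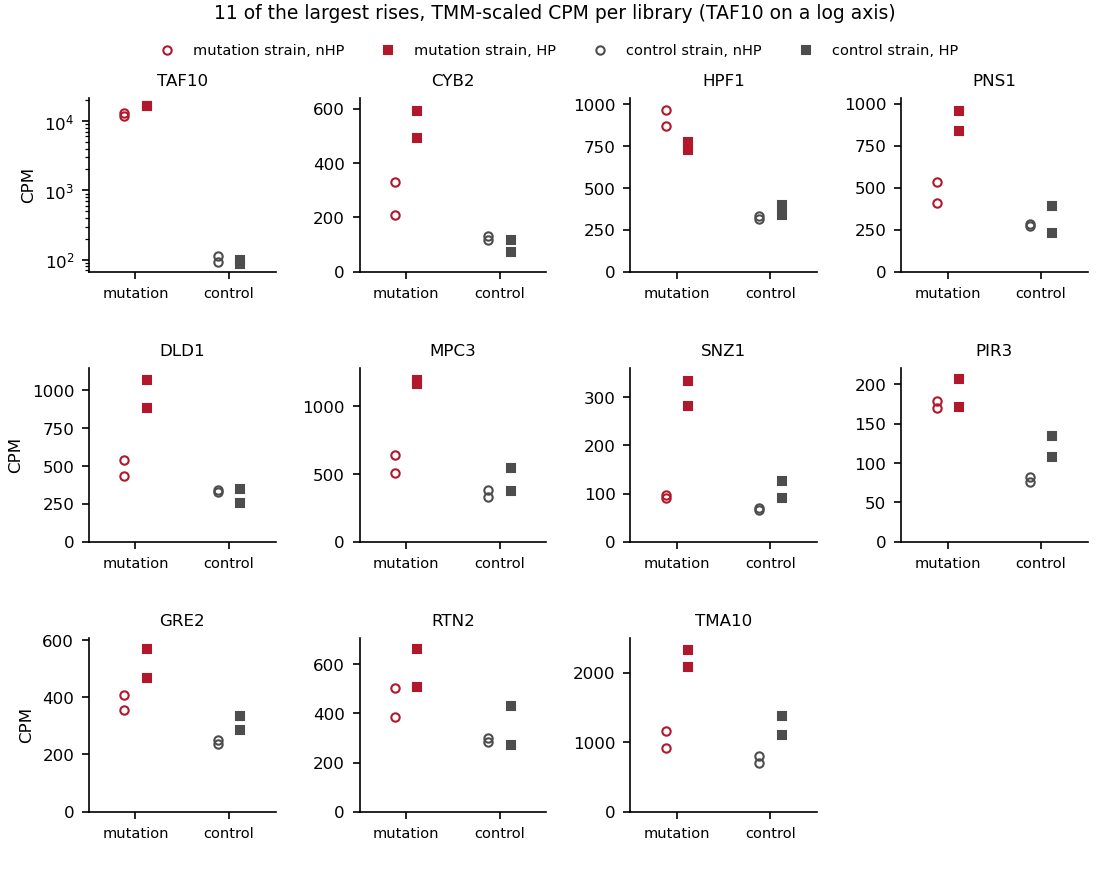
CPM per library of 11 of the genes with the largest pooled rises among those called under both titles that averaged 10 CPM or more. Points of the mutation strain stand left of those of the control strain, marker shapes tell nHP from HP, and TAF10 has a log axis. HPF1, PIR3 and GRE2 stay apart by strain under both titles, while CYB2, DLD1, PNS1 and SNZ1 are furthest up in the mutation libraries of HP.

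Genes for oxidative stress, the trait named in the strain's description, showed few differences shared by the titles. Of 11 thioredoxin and peroxiredoxin genes 1 was higher, the mitochondrial peroxiredoxin PRX1, at 0.51. None of 17 glutathione genes and none of 6 catalase and superoxide dismutase genes was called in edgeR's pooled test, and their median log2 differences were 0.15 and 0.25. Of 9 measured oxidoreductases and exporters under Yap1 control 1 was higher, GRE2, and 1 lower, OYE2, at -0.45. Of 20 stress transcription factors 1 was called, YAP1, the peroxide-responsive regulator, higher by 0.33, with 361 ± 19.9 CPM in the mutation strain and 287 ± 16.8 CPM in the control strain (adjusted p 0.049). The calls of YAP1, PRX1 and OYE2 were kept in 0, 1 and 1 of 8 fits that left out a library, and those of YAP1 and PRX1 were lost without TMM. SKN7, MSN2 and MSN4 were not called, with differences of -0.08, 0.02 and -0.12; that of MSN2 was -0.029 without TMM.

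Some amino acid genes were called, beside 1.62% of all genes higher and 4.0% lower in the pooled test. In arginine metabolism 5 of 15 genes were lower, with a list median of -0.31, among them ARG4 at -0.68, ARG7 at -0.62, ARG2 at -0.56 and the mitochondrial ornithine carrier ORT1 at -0.48. The same list held 1 rise, that of CAR2, of arginine breakdown, at 0.86, a call that was lost without TMM. The calls of CAR2 and ORT1 were kept in 3 and 1 of 8 fits that left out a library. Those of ARG2, ARG4 and ARG7 were kept in 7, 6 and 6. ARG4, argininosuccinate lyase, averaged 233 ± 66.3 CPM in the mutation strain and 363 ± 27.6 CPM in the control strain. The number of lower genes in this list was 1 without replicate 1 of the nHP mutation libraries and 2 without replicate 2 of the nHP control libraries. Of 47 genes for other amino acids 2 were higher, LEU1 at 0.53 and SER3 at 0.51, and 4 lower, LYS2, HOM2, ARO1 and HIS7, at -0.39 to -0.33. The calls of LYS2, HOM2, ARO1 and HIS7 were kept in 2, 0, 1 and 1 of 8 fits that left out a library, that of LEU1 in 4 and that of SER3 in all 8.

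In the iron regulon 3 of 23 genes were higher in the pooled test, beside 1.62% of all genes, with a list median of 0.12. They were the cell wall mannoprotein FIT2 at 1.03, the siderophore transporter SIT1 at 0.86 and the mitochondrial carrier MRS4 at 0.46. Within nHP none of the 23 was higher and 4 were lower (9.91% of all genes were), at a median of -0.15. Within HP 12 were higher (14.7% of all genes were) and none lower, at a median of 0.31. An interaction was called for 14 of them, against 29.2% of all genes. The pooled count was 0 without TMM and on log2(RPKM + 1). It was also 0 without replicate 2 of the nHP control libraries and without any 1 of the 4 HP libraries, 1 without replicate 1 of the nHP mutation libraries and 2 without replicate 1 of the nHP control libraries. Single genes that were lower included the chaperone gene HSP26 at -1.12, the cystathionine lyase gene STR3 at -1.07 and the alcohol dehydrogenase gene ADH4 at -0.84. HSP26 had an adjusted p of 0.066 without replicate 1 of the nHP mutation libraries.

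**Figure D4:**
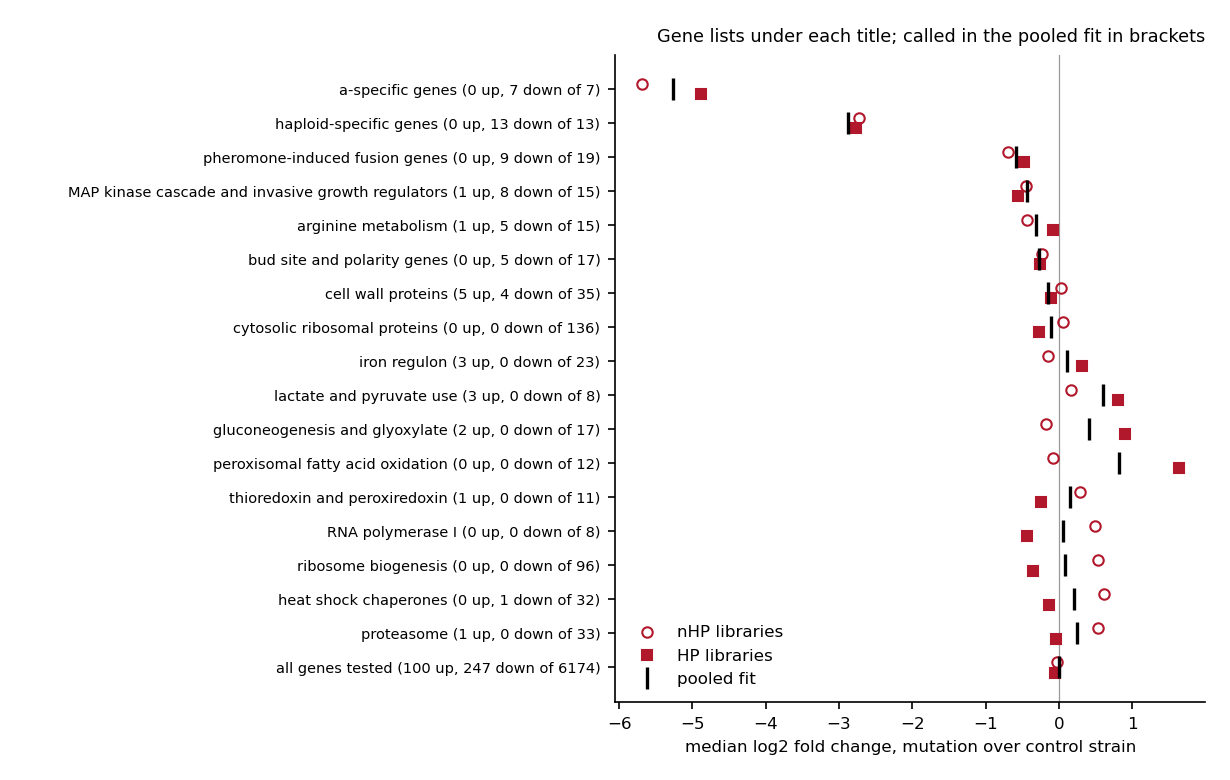
Median log2 difference between the mutation and control strains for each gene list within nHP, within HP and pooled, with the numbers of members called higher and lower in the pooled test in brackets. The a-specific and haploid-specific lists lie far to the left in all 3 comparisons, at pooled medians of -5.27 and -2.87, while ribosome biogenesis stands to the right within nHP and to the left within HP.

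Many genes of ribosome biogenesis and RNA polymerase I were called in opposite directions under the 2 titles and were not called pooled. Of 96 ribosome biogenesis genes none was called in edgeR's pooled test. But 75 were higher within nHP, where 11.4% of all genes were, and 51 were lower within HP, where 14% of all genes were. In 42 genes both held, as it did for 2.79% of all genes. The median log2 difference was 0.54 within nHP and -0.36 within HP. Their summed level under nHP was 33493 and 37352 CPM in the mutation strain and 23171 and 25245 CPM in the control strain. Under HP it was 18183 and 18973 CPM in the mutation strain and 21782 and 26060 CPM in the control strain. NOP7 and ENP2, of the assembly of the large and small subunit, differed by 0.98 and 0.87 within nHP and by -0.38 and -0.36 within HP, where the call of NOP7 was lost with RLE size factors. Within HP each of them was called in 3 of 8 fits that left out a library, and was lost without either nHP control library, either HP mutation library or replicate 2 of the HP control libraries (highest adjusted p 0.33 for NOP7 and 0.18 for ENP2; NOP7 was at -0.23 without replicate 2 of the HP control libraries). Of 8 genes of RNA polymerase I 5 were called in opposite directions, where 3.69% of all genes were. Among them were its largest subunits, RPA190 at 0.65 within nHP and -0.51 within HP and RPA135 at 0.63 and -0.54. Within HP both lost the call without replicate 1 of the HP mutation or replicate 2 of the HP control libraries. Within nHP both lost it without replicate 1 of the nHP control libraries.

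Of 11 thioredoxin and peroxiredoxin genes 5 were called in opposite directions (3.69% of all genes were). Of these, 4 were higher within nHP and lower within HP (2.79% of all genes were). AHP1 (YLR109W), a peroxiredoxin, had 3764 and 4553 CPM in the mutation strain under nHP, against 2077 and 2345 CPM in the control strain. Under HP it had 2317 and 1994 CPM in the mutation strain, against 3248 and 3313 CPM in the control strain. The strain order was turned round between the titles, with log2 differences of 0.91 and -0.61. SRX1, which repairs peroxiredoxins, differed by 1.37 within nHP and -0.63 within HP, TRR1, the cytosolic thioredoxin reductase, by 0.85 and -0.48, the peroxiredoxin gene TSA1 by 0.87 and -0.46, while the mitochondrial reductase TRR2 went the other way, by -0.39 and 0.44. Within HP, TSA1 was called in none of 8 fits that left out a library and AHP1 lost its call without either HP mutation library (highest adjusted p 0.25 and 0.11); SRX1 and TRR1 were called in 4 and 5 of those fits. With RLE size factors the HP call of TSA1 was lost too.

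Other lists were called mainly under 1 title, with the interaction called for most of their members. Of all genes tested, 11.4% were higher within nHP, 14.7% were higher within HP and 29.2% had an interaction. All 33 proteasome genes were higher within nHP, 1 was higher within HP, and 29 had an interaction; in the pooled test 1 was higher, RPN4, the activator of proteasome genes, at 0.44, which lost its call without TMM. Of 32 heat shock chaperones 23 were higher within nHP and 2 within HP, and 27 had an interaction. Of 17 genes for gluconeogenesis and the glyoxylate cycle 15 were higher within HP, where 14.7% of all genes were, and 2 within nHP, with 13 interactions; in the pooled test 2 were higher, the activator CAT8 at 0.83 and MDH2, a malate dehydrogenase, at 0.37, and both calls were lost without TMM. Of 12 genes for peroxisomal fatty acid oxidation 11 were higher within HP and none within nHP, with 11 interactions. Of 6 transporters of acetate, lactate and glycerol 5 were higher within HP and none within nHP. Pooled counts of these lists depend on the fit. The average of the within-title comparisons called 22 of 33 proteasome genes and 13 of 32 chaperones higher (1 chaperone lower). It also called 10 of 17 gluconeogenesis and 11 of 12 fatty acid oxidation genes higher, among 662 higher genes in all.

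Among single genes called in opposite directions, GPX2 (YBR244W), a glutathione peroxidase, had 202 and 205 CPM in the mutation strain under nHP, against 46.2 and 79.7 CPM in the control strain. Under HP it had 87.2 and 80 CPM in the mutation strain, against 149 and 221 CPM in the control strain. The log2 differences were 1.69 and -1.15, and the pooled value of 0.26 was not called. ZAP1 (YJL056C), the activator of zinc-responsive genes, had 72.5 and 61.2 CPM in the mutation strain under nHP, against 109 and 109 CPM in the control strain. Under HP it had 110 and 104 CPM in the mutation strain, against 71.4 and 71.1 CPM in the control strain. The strains changed places between the titles, with differences of -0.70 and 0.59.

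Another 5 genes chosen by the same rule showed the same exchange. PRP43, an RNA helicase of splicing and ribosome assembly, differed by 0.54 within nHP and -0.50 within HP. Lower within nHP and higher within HP were the ammonium permease gene MEP2 at -0.59 and 0.56, the carnitine acetyltransferase gene YAT2 at -0.57 and 0.55, the thiazole synthase gene THI4 at -0.92 and 0.81, and MOH1 at -0.72 and 0.97. Without TMM, the genes called in opposite directions were 103 higher within nHP and lower within HP and 128 the other way, and the genes with an interaction were 1321 with a higher and 576 with a lower strain difference under HP, against 904 and 899 with TMM (14.6% of all genes each). With 1 library left out the count of opposite genes ran from 32 (without replicate 1 of the nHP control or of the HP mutation libraries) to 486 (without replicate 1 of the HP control libraries); it was 58 and 84 without replicate 2 of the nHP mutation and nHP control libraries and 54 and 102 without replicate 2 of the HP mutation and HP control libraries.

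**Figure D5:**
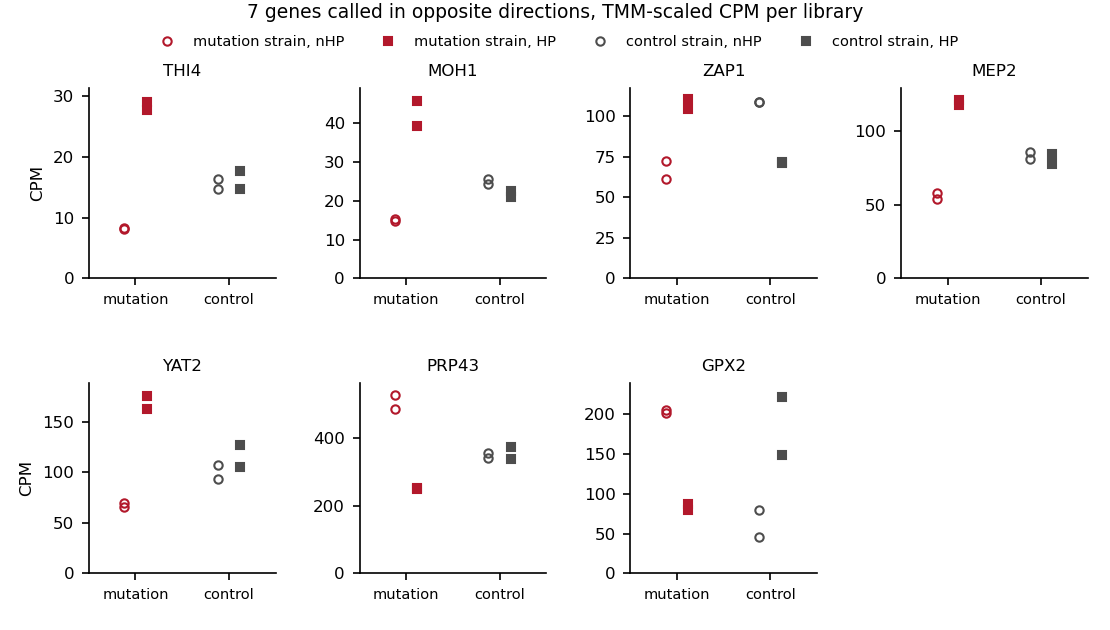
CPM per library of 7 genes called in opposite directions under the 2 titles; within each title, points of the mutation strain stand left of those of the control strain. In GPX2 and PRP43 the mutation strain lies above the control strain under nHP and below it under HP; in ZAP1, MEP2, YAT2, THI4 and MOH1 it lies below under nHP and above under HP.

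At the edge of the call, NDC80 at 0.76 and YNR065C at -0.31 were just inside with an adjusted p of 0.0497, and CHL1 at -0.28 and COQ6 at -0.27 were just outside with 0.0501 and 0.0502.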

How the data were processed

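Total RNA of 4 libraries of each strain was sequenced after library preparation with NEBNext Ultra reagents, per the labels' protocols. Per the submitters' processing notes the authors used TopHat2 2.0.9. How reads were counted, with which strand setting, genome build and annotation, is not stated. The deposited counts are whole reads per gene with no normalization. The deposited RPKM values are scaled by gene length and library total. The gene length implied by counts and RPKM equals the spliced length in R64 for 5844 of 5888 genes (99.25%), so names, coordinates and upstream sequences were taken from RefSeq R64. Of 7126 IDs 6048 matched a name; the 1078 others took 0.361% to 0.479% of the reads counted per library.

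Counts were fitted with edgeR 4.0.16 in R 4.3.3, after edgeR's filter on low counts by group and TMM scaling. The pooled comparison had strain and title as additive terms, with a variation of 13.3%. That variation holds the spread between libraries of a group and any dependence of the strain difference on the title. The comparisons within each title and the interaction, (HP mutation minus HP control) minus (nHP mutation minus nHP control), used 4 group means, with a variation of 8.07%. Tests were two-sided, and a gene was called at a Benjamini-Hochberg adjusted p below 0.05 over all genes tested. The procedure was tested on simulated data. Alternatives were RLE size factors, library totals without TMM, no filter on low counts, DESeq2 1.42.0, a minimum of 10 CPM in 4 libraries, limma-voom and limma 3.58.1 on log2(RPKM + 1) or log2(RPKM + 0.1), a replicate block, the average of the within-title comparisons, and leaving out each library. Near-identical copies were sought with BLAST 2.17.0, and figures drawn with Python 3.11.15 and matplotlib 3.10.9.

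The comparison and the gene lists were chosen with earlier results of these data known, so no count of a list is independent support. The rule for named genes took 12 rises and 12 falls with the largest pooled difference among genes called pooled and under both titles the same way, whose mean was 10 CPM or more and whose strains did not overlap within a title. It took the 8 genes of opposite direction with the smallest of the larger adjusted p, up to 3 members of each list by pooled p, all a-specific and haploid-specific genes, and TAF10, SPT15, RPB7, YAP1, SKN7, MSN2, MSN4, URA3, HIS3, LEU2 and MET17. Other genes named, and the lists for filamentous growth, polarity, lactate use and Ty genes, were chosen after their values were seen. Of the genes this rule took, 3 are not reported here as single genes; they stay in all counts over genes and lists. A table of protein sequences was not used here.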

Additional observations from a re-analysis of the deposited data

Results flagged for a closer look

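For 57 of the genes named, the strain difference itself differed between the titles in edgeR's interaction test, at an adjusted p below 0.05, the same call that 29.2% of all genes tested received. Values are the difference within HP minus the difference within nHP, on the log2 scale. Of the 57 genes 23 had opposite signs under the titles and 34 were called in the pooled test. Groups of 2 libraries were too small for a test of single outlying libraries.

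Among the genes that fell in the pooled test, 18 fell less within HP. These were the mating genes STE2 (0.71), STE6 (0.89), MFA1 (1.06), MFA2 (1.23), FUS3 (0.62), AXL1 (0.64), RME1 (0.77), PRM1 (0.71), PRM5 (0.85), KAR5 (0.58) and FUS1 (1.67), with TEC1 (0.57), IME4 (0.44), ARG7 (0.45), ARG4 (0.57), ADH4 (0.62), the hexose transporter gene HXT4 (0.64) and HSP26 (0.90). In 6 genes the fall was larger within HP, namely RDH54 (-0.62), STE12 (-0.47), MSB2 (-0.55), RAX2 (-0.61) and the noncoding RNAs RPR1 (-0.51) and LSR1 (-0.55).

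Among the genes that rose, 8 rose more within HP, namely YML089C (1.68), CYB2 (1.41), DLD1 (1.15), SNZ1 (1.06), FIT2 (1.24), SIT1 (1.05), CAT8 (0.86) and NDC80 (0.88), and HPF1 (-0.47) and LEU1 (-0.47) rose less.

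The 23 genes of opposite sign were not called in the pooled test. Higher in the mutation strain within nHP and lower within HP were GPX2 (-2.84), SRX1 (-2.0), AHP1 (-1.52), TRR1 (-1.33), TSA1 (-1.32), NOP7 (-1.36), ENP2 (-1.23), RPA135 (-1.18), RPA190 (-1.16), RPA43 (-1.10), RPA34 (-0.90) and PRP43 (-1.04). Lower within nHP and higher within HP were TRR2 (0.83), YAT2 (1.12), MEP2 (1.15), ZAP1 (1.29), MOH1 (1.69), THI4 (1.73), JEN1 (2.69) and the alpha-specific genes SAG1 (0.51), MF(ALPHA)2 (0.77), MF(ALPHA)1 (1.47) and STE3 (1.69), although not all of these differences were called within each title.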

How the results depend on the processing

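The 347 pooled calls became 617 with DESeq2 (278 higher, 339 lower), 1348 with the average of the within-title comparisons, both of which kept all 347, and 160 with strain alone and no title term, chosen after the data were seen. Leaving out 1 library gave 150 to 370 pooled calls, 134 to 393 genes called the same way, 32 to 486 called in opposite directions and 724 to 2554 with an interaction, which was 724, 872, 953 and 1112 without replicate 2 of the nHP mutation, replicate 1 of the nHP control and replicates 1 and 2 of the HP mutation libraries. The 228 genes of opposite direction were 150 on log2(RPKM + 1) and 149 on log2(RPKM + 0.1). The labels do not say that replicate numbers pair the samples, and the correlations of same-numbered deviations ran from -0.033 to 0.204, with 4 of 6 over 0.1, so the block was not used; with the replicate number as a block there were 117 pooled calls (14 higher, 103 lower), 372 genes called the same way, 462 in opposite directions and 2298 interactions. Of 113 named genes called in the pooled test, 57 kept the call under the block, 95 without TMM, 93 on either RPKM scale, 105 with RLE, 110 with limma-voom and 70 to 98 when 1 library was left out; none changed sign. Sign changed for 3 genes not called in the pooled test: MSN2 (-0.029 without TMM, -0.028 on both RPKM scales), SPT15 (-0.030 without TMM, -0.029 and -0.030 on the RPKM scales, and -0.012 to 0.125 with 1 library left out, at -0.0081 and -0.012 without replicate 1 of the nHP mutation or nHP control libraries) and RPB7 (-0.055 to 0.044 with 1 library left out, at 0.0039 without replicate 1 of the nHP mutation and 0.044 without replicate 2 of the nHP control libraries). The causes were not tested. With 2 libraries a group, few samples limit every p-value, and genes near the count floor, near-identical copies and overlapping genes are the least certain.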

Other observations

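Other gene lists showed few pooled differences. In the respiratory chain and ATP synthase 1 of 34 genes was higher, CYC7, an isoform of cytochrome c used when oxygen is low, with 170 ± 11.8 CPM in the mutation strain and 121 ± 9.44 CPM in the control strain (SD, n = 4 each). Among 33 autophagy genes 1 was higher, the kinase gene ATG1 at a log2 difference of 0.60. Within HP 17 of them were higher (14.7% of all genes were) and within nHP 2 (11.4% of all genes were). The pooled calls of CYC7 and ATG1 held in all 8 fits that left out a library. ERG9, squalene synthase, was the called member of 29 ergosterol and heme genes, at 0.42, and kept its call in 3 of those 8 fits. IDH2, of the TCA cycle, was lower by 0.36 and kept it in 1.

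Few translation genes were called. None of 136 cytosolic ribosomal protein genes was called in edgeR's pooled test, and their median was -0.11 on the log2 scale, with 0.051 within nHP and -0.27 within HP; 2 of 70 mitochondrial ribosomal protein genes were lower (4.0% of all genes were), with a median of -0.043, and none was called in any of the 8 fits that left out a library. None of 11 histone genes, 15 genes of the phosphate regulon, 17 genes of purine synthesis and 12 of pyrimidine synthesis was called in that test. Of 19 genes of glycolysis and fermentation none was called in edgeR's pooled test, but 7 were lower with DESeq2, 6 on log2(RPKM + 1), 4 without TMM and 4 without replicate 2 of the nHP mutation libraries. Within HP 9 were lower, where 14% of all genes were, with a median of -0.42.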
